A study of Mus musculus with 12 samples.

Results

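The genes described here are 10 members of the hypoxia-inducible factor (HIF) pathway, picked by symbol from 12 mouse liver RNA-seq libraries made with and without delivery of fumarate hydratase (FH). They are the HIF alpha subunits Hif1a and Epas1, the prolyl hydroxylases Egln1, Egln2 and Egln3, the ubiquitin ligase subunit Vhl, and the HIF targets Vegfa, Ankrd37, Slc2a1 and Ldha. The deposited table lists them in capitals as HIF1A, EPAS1, EGLN1, EGLN2, EGLN3, VHL, VEGFA, ANKRD37, SLC2A1 and LDHA. All 10 matched a row among the 56441 genes of the deposited count table, and all 10 passed the filter on low counts, Ankrd37 only through the ob/ob vector libraries.

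HIF is a transcription factor made of an oxygen-regulated alpha subunit and the constant partner ARNT. In normal oxygen the EGLN enzymes hydroxylate the alpha subunit, using oxygen and 2-oxoglutarate and releasing succinate, and VHL then marks the hydroxylated protein for degradation. Fumarate and succinate compete with 2-oxoglutarate at the EGLN active site, which ties fumarate hydratase, the citric acid cycle enzyme that turns fumarate into malate, to this pathway. Since HIF alpha is set mostly at the protein level, transcript counts report the abundance of the pathway's mRNAs and not its activity.

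The libraries fall into 4 groups of 3. The ob/ob FH group came from leptin-deficient ob/ob mice injected with AAV8-FH in the tail vein at 6 to 8 weeks of age and kept on a high-fat diet for 1 month, and the ob/ob vector group from ob/ob mice on that diet given AAV8-vector. The fasted FH group came from C57BL/6 mice injected with AAV8-FH at 6 to 8 weeks and fasted for 24 h 1 month later, and the fasted vector group from C57BL/6 mice given AAV8-vector and treated alike. AAV8, an adeno-associated virus serotype that enters hepatocytes well, is called liver-specific by the submitters, who give no promoter, no species for the FH sequence and no statement that the libraries came from separate animals. The p-values therefore rest on library-to-library spread, part of which may be technical. The tissue is given as liver and the cell type as hepatocyte, and in bulk RNA fewer cells of a type and less RNA per cell cannot be told apart.

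Fh1, the mouse gene for FH, followed the labels. It had 620, 616 and 801 CPM (counts relative to the TMM-scaled library total) in the ob/ob FH libraries, against 141, 106 and 118 CPM in the ob/ob vector libraries. It had 925, 720 and 791 CPM in the fasted FH libraries, against 311, 408 and 238 CPM in the fasted vector libraries. No library of an FH group overlapped its vector group.

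Library totals were 19107050 to 25873379 counts in the 6 FH libraries and 12231828 to 14884323 in the 6 vector libraries, with no overlap. The TMM factors, which adjust for RNA composition, were 0.722 to 0.907 in FH libraries and 1.12 to 1.37 in vector libraries. The median log2 fold change over the 15228 tested genes was -0.63 with library totals alone and -0.01 with TMM in ob/ob mice, and -0.71 and -0.04 in fasted mice, so both scalings are given for the members. Malat1, a nuclear RNA, had 12.7 to 80.9 CPM in FH libraries and 358 to 558 CPM in vector libraries. The clock gene Dbp had 45.8 to 63.2 CPM in fasted FH libraries, against 2.39 to 5.81 CPM in fasted vector libraries, and it had 0.42 CPM in ob/ob vector replicate 2, where the other ob/ob vector libraries had 35.7 and 36.7 CPM. The ob/ob FH libraries had 2242 to 4992 Xist counts and 0 counts of 4 Y-linked genes, whereas the other 9 libraries had 1 to 24 Xist counts and 2304 to 5181 Y-linked counts. The part of these features in the results was not tested, and in ob/ob mice the Xist and Y-linked difference and FH cannot be told apart.

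In ob/ob livers edgeR's quasi-likelihood test with TMM scaling called 5 members higher and 1 lower with FH among the 9 other than Ankrd37, at an adjusted p under 0.05, against 25.8% of all tested genes higher and 27.9% lower (53.7% in either direction). Ankrd37 is left out of the counts of members because it passed the filter only through the ob/ob vector libraries, where it was highest. The median log2 fold change of the 9 was 0.49, against -0.01 over all tested genes. With library totals it was -0.13, against -0.63 over all genes, and the calls were 0 higher and 3 lower, against 6.83% and 53.3% of all genes (60.1% in either direction). The libraries of the groups did not overlap for 8 of the 9, which was so for 61.8% of all tested genes.

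In fasted livers 7 of the 9 were called higher and 1 lower with FH, against 27.4% of tested genes higher and 27.6% lower (55.0% in either direction). Their median log2 fold change was 0.80, against -0.04 over all genes. With library totals it was 0.13, against -0.71 over all genes, and the calls were 1 higher and 2 lower, against 7.16% and 55.7% of all genes (62.9% in either direction). The groups did not overlap for any of the 9 members (61.0% of all tested genes).

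**Figure D1:**
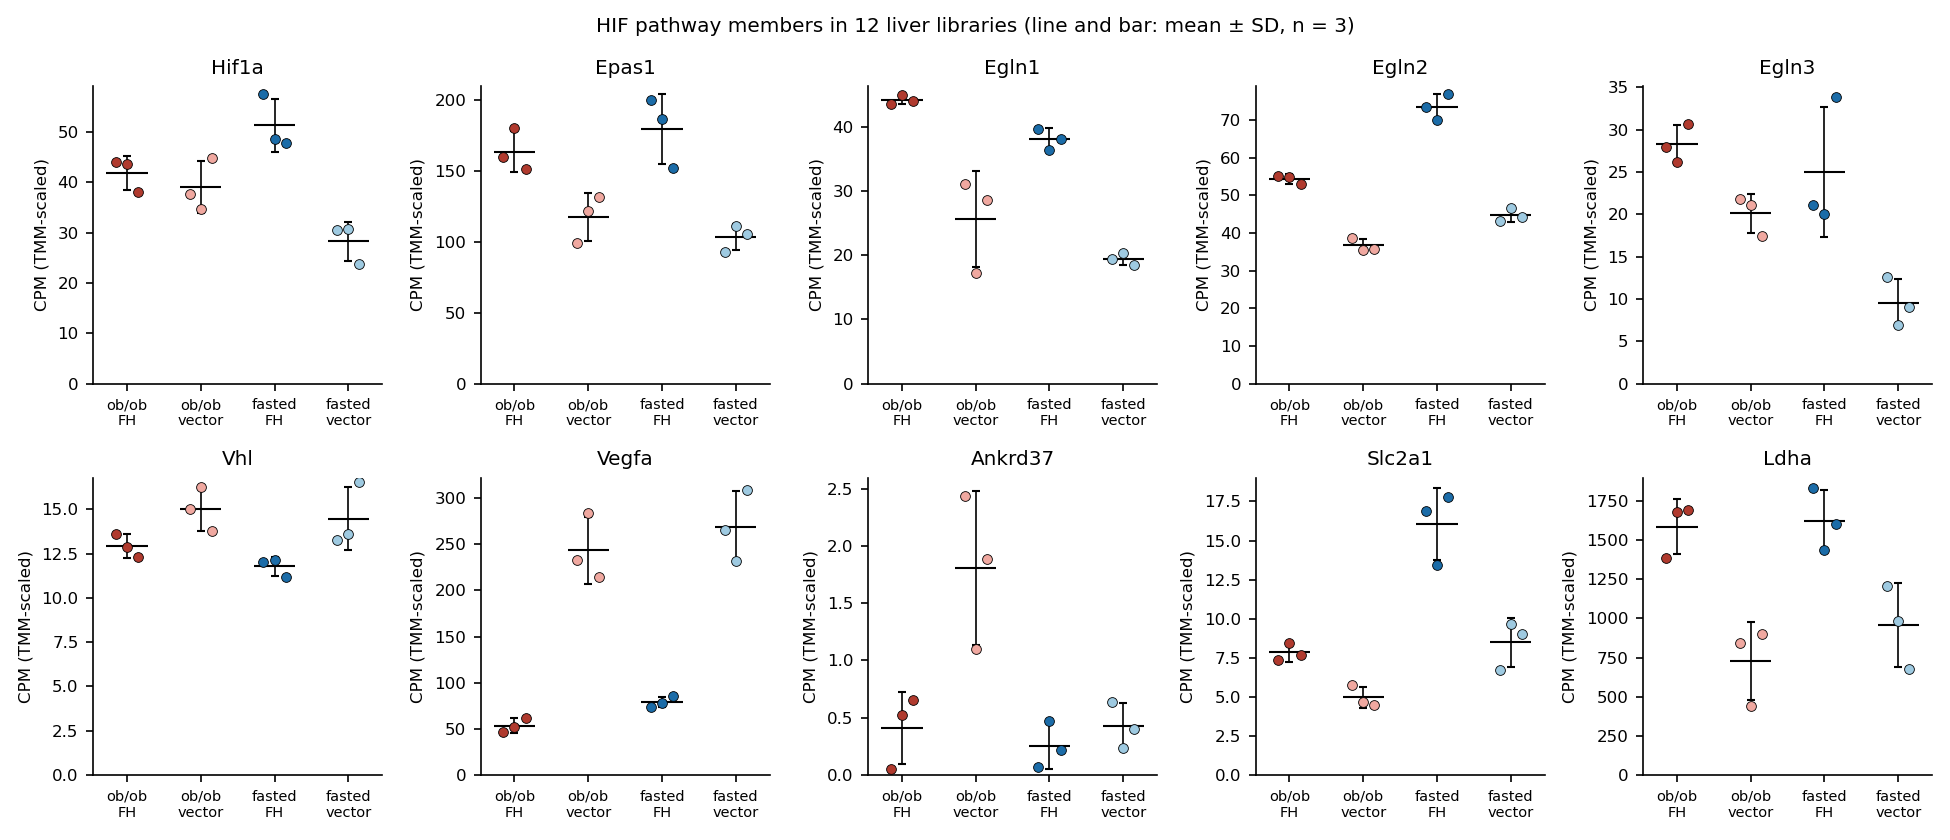
Level of each of the 10 members in CPM (TMM-scaled, linear axis from 0) in the ob/ob FH, ob/ob vector, fasted FH and fasted vector groups; points are libraries, lines and bars the mean and SD of 3. Vegfa sits at 46.1 to 85.5 CPM in the 6 FH libraries and at 214 to 309 CPM in the 6 vector libraries.

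Vegfa fell in both models under either scaling. It encodes the vascular endothelial growth factor that signals to endothelial cells, and is a textbook HIF target. In ob/ob mice it had 46.1, 51.5 and 62.1 CPM in FH libraries, against 233, 284 and 214 CPM in vector libraries. In fasted mice it had 74.0, 78.1 and 85.5 CPM in FH libraries, against 266, 232 and 309 CPM in vector libraries. Every FH library was below every vector library in each model. Even the raw counts were lower, at 890 to 1597 in FH libraries against 3748 to 5404 in vector libraries, although the FH libraries were the deeper ones.

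The fall was 4.57-fold in ob/ob mice (log2 fold change -2.19, SE 0.16, adjusted p = 8.44e-07) and 3.39-fold in fasted mice (-1.76, SE 0.16, adjusted p = 3.32e-06). With library totals the log2 fold changes were -2.81 and -2.44. Leaving out any 1 library kept both calls, with log2 fold changes of -2.34 to -2.05 in ob/ob mice and -1.84 to -1.64 in fasted mice. The effect in ob/ob mice minus that in fasted mice was -0.43 (SE 0.22, adjusted p = 0.245). Malat1, at the levels given above, was also lower in every FH library than in any vector library, and its part in the Vegfa result was not tested.

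Ankrd37, a small ankyrin-repeat gene known as a HIF target, was close to the counting limit. Its raw counts in ob/ob mice were 1, 10 and 14 in FH libraries, against 42, 21 and 36 in vector libraries. In fasted mice they were 1, 7 and 4 in FH libraries, against 9, 4 and 6 in vector libraries. The groups did not overlap in ob/ob mice and overlapped in fasted mice. Its log2 fold change in ob/ob mice was -2.11 (SE 0.62), or -2.71 with library totals. These are descriptions, since the gene entered the fit through the group where it was high. In a fit of all genes with no filter the value was -2.09 (adjusted p = 5.02e-04). The p-values of that fit are no check on the main ones, because they ran apart at close log2 fold changes. For Vegfa in ob/ob mice the adjusted p was 1.19e-32 with no filter and 8.44e-07 in the main fit. For Vhl in fasted mice it was 0.199 and 0.0669. The log2 fold change of Ankrd37 in fasted mice was -0.72 (SE 0.79, adjusted p = 0.457), or -1.38 with library totals (adjusted p = 0.151). The fasted value moved to -0.38 without fasted vector replicate 1, to -0.32 without fasted FH replicate 1 and to -1.43 without fasted FH replicate 2. The effect in ob/ob mice minus that in fasted mice was -1.38 on TMM scaling (SE 1.03, adjusted p = 0.447). Counts summed over a group gave 0.365 CPM of library totals in ob/ob FH mice (95% exact Poisson interval 0.236 to 0.538) and 2.40 CPM in ob/ob vector mice (1.95 to 2.92), intervals that cover counting error only. Ankrd37 shares 186 exon bases with Lrp2bp on the opposite strand in GENCODE M21, and since no source says whether counting used strand, the 2 genes' reads may be mixed.

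The 250 bases before the RefSeq transcript start (GRCm38.p6) are shown for 4 members that moved in different directions, Vegfa and Ankrd37, which were lower in ob/ob FH mice, and Ldha and Egln3, which were higher in fasted mice on TMM scaling. Capitals mark the core of the hypoxia response element, searched as ACGTG and GCGTG on both strands, so that CACGTG counts once on each strand. Vegfa has 2 windows in that table, both on the minus strand, from separate starts. One is chr17:46032378-46032627, with 0 matches, and the other chr17:46025164-46025413, with 2 matches, 218 and 211 bases before the start. The Ankrd37 window is chr8:45999851-46000100, minus strand, with 4 matches, the nearest 6 bases before the start. The Ldha window shown is chr7:46845554-46845803, plus strand, with 5 matches, and a further Ldha window held 1. The Egln3 window is chr12:54203875-54204124, minus strand, with 1 match, 229 bases before the start. The Vegfa window with 2 matches and the Ankrd37 and Ldha windows shown lie inside the GENCODE M21 spans of those genes. Whether their matched letters fall in exons, coding ones included, was not examined, so these matches are not shown to be promoter letters. Of the Vegfa windows, the one outside the span of the gene is the one with 0 matches.
Vegfa, 0 matches: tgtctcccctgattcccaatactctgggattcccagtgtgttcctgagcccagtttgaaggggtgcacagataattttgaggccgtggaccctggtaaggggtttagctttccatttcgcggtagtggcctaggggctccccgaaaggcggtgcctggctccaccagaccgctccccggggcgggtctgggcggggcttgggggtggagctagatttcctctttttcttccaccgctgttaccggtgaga
Vegfa, 2 matches: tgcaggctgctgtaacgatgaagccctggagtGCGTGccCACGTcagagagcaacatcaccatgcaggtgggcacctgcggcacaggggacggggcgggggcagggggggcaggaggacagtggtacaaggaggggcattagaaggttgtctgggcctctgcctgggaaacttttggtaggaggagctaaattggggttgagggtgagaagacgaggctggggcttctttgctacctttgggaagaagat
Ankrd37: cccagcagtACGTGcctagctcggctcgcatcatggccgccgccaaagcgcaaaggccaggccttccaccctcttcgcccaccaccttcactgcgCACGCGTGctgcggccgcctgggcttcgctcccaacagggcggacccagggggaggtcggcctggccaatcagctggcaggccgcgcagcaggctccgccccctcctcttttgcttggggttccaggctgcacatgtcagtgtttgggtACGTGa
Ldha: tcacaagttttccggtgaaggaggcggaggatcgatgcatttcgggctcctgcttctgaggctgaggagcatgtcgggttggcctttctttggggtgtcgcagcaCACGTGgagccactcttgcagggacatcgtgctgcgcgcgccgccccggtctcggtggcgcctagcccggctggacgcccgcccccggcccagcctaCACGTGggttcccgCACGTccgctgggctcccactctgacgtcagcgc
Egln3: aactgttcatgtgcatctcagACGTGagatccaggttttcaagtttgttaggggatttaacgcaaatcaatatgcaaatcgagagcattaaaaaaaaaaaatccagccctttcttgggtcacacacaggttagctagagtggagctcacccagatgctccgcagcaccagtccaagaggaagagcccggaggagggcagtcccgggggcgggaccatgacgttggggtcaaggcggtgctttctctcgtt
Of 32851 windows of this length in the RefSeq table, 38.6% held a match and 16.7% held 2 or more, and 10 of the 12 windows of the 9 members other than Epas1 held a match. The 2 without one were the Vegfa window given first and the window of Vhl. A match is a string of letters and not a measured site, and 0 matches says only that these letters are not in that window.

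**Figure D2:**
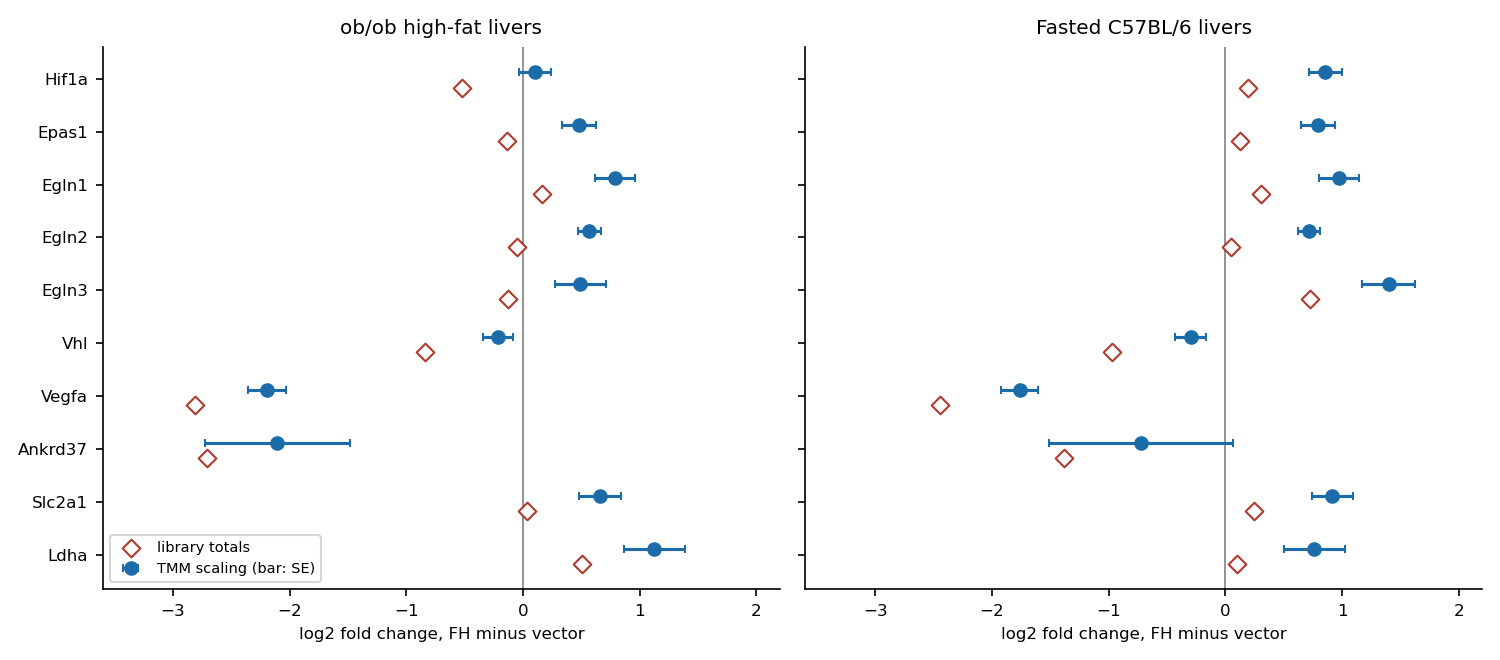
Log2 fold change of FH minus vector for each member in ob/ob mice (left) and fasted mice (right), with TMM scaling (filled circles, bar SE) and with library totals (open diamonds). Vegfa lies at -2.19 and -1.76 with TMM and further down with library totals, while Hif1a, Epas1, Egln2 and Egln3 in ob/ob mice change sign between the scalings (0.10 to 0.57 with TMM, -0.52 to -0.06 with library totals).

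Hif1a, the alpha subunit found in most cell types, overlapped between the groups in ob/ob mice, at 43.9, 43.7 and 38.0 CPM in FH libraries and 37.7, 34.7 and 44.8 CPM in vector libraries. In fasted mice it had 57.4, 48.6 and 47.9 CPM in FH libraries, against 30.5, 30.6 and 23.8 CPM in vector libraries, with no overlap. The log2 fold change in ob/ob mice was 0.10 with TMM (SE 0.14, adjusted p = 0.559) and turned to -0.52 with library totals (adjusted p = 0.00318), where the median gene stood at -0.63. In fasted mice Hif1a rose by 0.86 on TMM scaling (SE 0.14, adjusted p = 1.95e-04), and with library totals its value was 0.19 (adjusted p = 0.209). In GENCODE M21 Hif1a overlaps an antisense gene, Gm15283, over 330 exon bases and Gm49321, a coding gene on the same strand, over 148 exon bases.

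Hif1a was the 1 member whose FH effect was called different between the models, against 8.42% of all tested genes (4.77% higher, 3.65% lower). The effect in ob/ob mice minus that in fasted mice was -0.76 with TMM (SE 0.20, adjusted p = 0.0316) and -0.72 with library totals (adjusted p = 0.0326), where 7.11% of all genes were called (4.74% higher, 2.37% lower). The call was lost in 8 of the 12 fits that left out 1 library. Among the ob/ob libraries it was lost without FH replicate 1 (-0.74, adjusted p = 0.0692), 2 (-0.79, 0.0675) or 3 (-0.65, 0.121) and without vector replicate 1 (-0.78, 0.0545) or 3 (-0.65, 0.0614). Among the fasted libraries it was lost without FH replicate 1 (-0.67, adjusted p = 0.0765) or 2 (-0.79, 0.0556) and without vector replicate 3 (-0.65, 0.0724).

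Epas1 encodes HIF2 alpha, a subunit prominent in hepatocytes and endothelial cells. Its ob/ob level was 160, 180 and 152 CPM in FH libraries, against 99.0, 122 and 132 CPM in vector libraries. Its fasted level was 200.2, 187 and 152 CPM in FH libraries, against 93.0, 111 and 106 CPM in vector libraries. The groups did not overlap in either model. Epas1 rose with FH by 0.48 on the log2 scale in ob/ob mice (SE 0.15, adjusted p = 0.0132) and by 0.80 in fasted mice (SE 0.15, adjusted p = 4.81e-04), values that became -0.14 and 0.13 with library totals, neither called. Without ob/ob FH replicate 2 the ob/ob effect was 0.41 (adjusted p = 0.0564), and without ob/ob vector replicate 1 it was 0.39 (adjusted p = 0.0582). Summed markers of liver endothelial cells stood at 395 to 496 CPM in ob/ob FH libraries against 308 to 373 CPM in ob/ob vector libraries, and at 205 to 220 CPM in fasted FH libraries against 419 to 532 CPM in fasted vector libraries. With library totals the order turned in ob/ob mice, at 326 to 445 CPM in FH and 423 to 492 CPM in vector libraries, which overlap, and held in fasted mice, at 150.2 to 163 CPM in FH and 479 to 634 CPM in vector libraries. None of these 12 markers was at 0 throughout a group, and their part in the Epas1 result was not tested.

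Egln1 encodes PHD2, the main oxygen sensor among the EGLN enzymes. Among ob/ob livers it had 43.6, 45.0 and 43.9 CPM in FH libraries, against 31.1, 17.2 and 28.6 CPM in vector libraries, where replicate 2 was the low one. Among fasted livers it had 39.7, 36.3 and 38.1 CPM in FH libraries, against 19.4, 20.3 and 18.4 CPM in vector libraries. All FH libraries were above all vector libraries in each model. Egln1 rose by 0.79 on the log2 scale in ob/ob mice (SE 0.17, adjusted p = 0.00157) and by 0.98 in fasted mice (SE 0.17, adjusted p = 3.54e-04), values that became 0.16 and 0.31 with library totals, neither called. Leaving out ob/ob vector replicate 2 gave an ob/ob effect of 0.58 on TMM scaling (adjusted p = 8.77e-04).

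Egln2 encodes PHD1. In ob/ob mice it had 55.3, 55.0 and 52.9 CPM in FH libraries, against 38.7, 35.6 and 35.8 CPM in vector libraries. Its level in fasted mice was 73.6, 70.1 and 76.9 CPM in FH libraries, against 43.2, 46.5 and 44.4 CPM in vector libraries. Both sets of groups were far apart relative to their spread. Egln2 rose by 0.57 on the log2 scale in ob/ob mice (SE 0.10, adjusted p = 3.02e-04) and by 0.72 in fasted mice (SE 0.10, adjusted p = 4.88e-05), values that became -0.06, with the sign turned, and 0.05 with library totals, neither called.

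Egln3 encodes PHD3, itself a HIF-induced gene in many cells. Its level in ob/ob mice was 27.9, 26.1 and 30.7 CPM in FH libraries, against 21.7, 21.1 and 17.4 CPM in vector libraries. In fasted mice it was 21.1, 19.97 and 33.8 CPM in FH libraries, against 12.5, 6.88 and 9.10 CPM in vector libraries. The groups did not overlap in either model. In ob/ob mice the log2 fold change of 0.49 missed the threshold (SE 0.22, adjusted p = 0.0695) and was -0.13 with library totals. It passed with no filter on low counts (0.51, adjusted p = 0.00904) and with the ob/ob groups fitted alone (0.43, adjusted p = 0.0229). The limit on p-values with no filter, given for Ankrd37, holds here too.

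In fasted mice Egln3 rose with a log2 fold change of 1.40 (SE 0.23, adjusted p = 1.90e-04) and, as the 1 member called higher under both scalings, one of 0.73 with library totals (adjusted p = 0.0143). The effect in ob/ob mice minus that in fasted mice was -0.91 (SE 0.31, adjusted p = 0.0886). It passed without fasted vector replicate 1 (-1.12, adjusted p = 0.0426) and with no filter (-0.87, adjusted p = 0.00732), a fit with the limit given for Ankrd37.

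Vhl is the substrate-binding subunit of the ligase that removes hydroxylated HIF alpha. Vhl in ob/ob mice had 13.6, 12.9 and 12.3 CPM in FH libraries, against 15.02, 16.3 and 13.8 CPM in vector libraries. Vhl in fasted mice had 12.01, 12.2 and 11.2 CPM in FH libraries, against 13.3, 13.6 and 16.5 CPM in vector libraries. Within each model every FH library was below every vector library, by little. The log2 fold changes were -0.22 in ob/ob mice (SE 0.13, adjusted p = 0.169) and -0.30 in fasted mice (SE 0.13, adjusted p = 0.0669). With library totals they were -0.84 (adjusted p = 2.07e-04) and -0.97 (adjusted p = 7.79e-05), both called. The fasted value also passed under RLE scaling (-0.34, adjusted p = 0.0411) and without fasted vector replicate 1 (-0.41, adjusted p = 0.0259). The mouse annotation holds a pseudogene of Vhl, so its reads may be split.

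Slc2a1 encodes the glucose transporter GLUT1, which is of low abundance in hepatocytes. Slc2a1 in ob/ob mice had 7.35, 8.47 and 7.69 CPM in FH libraries, against 5.74, 4.67 and 4.50 CPM in vector libraries. Slc2a1 in fasted mice had 16.9, 13.4 and 17.8 CPM in FH libraries, against 6.73, 9.69 and 9.03 CPM in vector libraries. The groups did not overlap in either model. Slc2a1 rose by 0.66 in ob/ob mice (SE 0.18, adjusted p = 0.00731) and by 0.92 in fasted mice (SE 0.17, adjusted p = 6.36e-04) on the log2 scale, values that became 0.04 and 0.24 with library totals, neither called. Slc2a1 overlaps an antisense gene, Gm12868, over 105 exon bases in GENCODE M21.

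Ldha, which makes lactate from pyruvate, was the most abundant member. Its level in ob/ob mice was 1384, 1682 and 1694 CPM in FH libraries, against 843, 443 and 899 CPM in vector libraries. In fasted mice it was 1831, 1438 and 1606 CPM in FH libraries, against 1208, 987 and 677 CPM in vector libraries. No library crossed between the groups, although the vector libraries spread widely. Ldha rose by 1.12 on the log2 scale in ob/ob mice (SE 0.26, adjusted p = 0.00261) and by 0.76 in fasted mice (SE 0.26, adjusted p = 0.0230). With library totals these values were 0.51 (adjusted p = 0.0968) and 0.10 (adjusted p = 0.734). The fasted call was lost without fasted FH replicate 1 (0.68, adjusted p = 0.0744) or fasted vector replicate 3 (0.58, adjusted p = 0.0966). Leaving out ob/ob vector replicate 2, the lowest of its group, gave an ob/ob effect of 0.88 on TMM scaling (adjusted p = 0.00349). Ldha also has pseudogenes in the annotation that may take a share of its reads.

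Ratios of raw counts within a library need no scaling between libraries. They were chosen after the values above were seen and are given with no test. Counts of Vegfa over those of Hif1a plus Epas1 were 0.226 to 0.327 in ob/ob FH libraries, against 1.21 to 1.81 in ob/ob vector libraries. In fasted mice this ratio was 0.287 to 0.428 in FH libraries, against 1.63 to 2.38 in vector libraries. The ranges were far apart in both models. Vhl over Hif1a overlapped in ob/ob mice, at 0.295 to 0.323 with FH and 0.307 to 0.469 with vector, and did not in fasted mice, at 0.209 to 0.250 with FH and 0.435 to 0.694 with vector.

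The summed EGLN counts over those of Hif1a plus Epas1 overlapped in both models, at 0.563 to 0.672 in ob/ob FH and 0.463 to 0.670 in ob/ob vector libraries, and at 0.522 to 0.745 in fasted FH and 0.519 to 0.609 in fasted vector libraries. Within the EGLN family, Egln1 over Egln2 overlapped in ob/ob mice, at 0.789 to 0.831 with FH and 0.482 to 0.805 with vector. In fasted mice Egln1 over Egln2 was 0.495 to 0.539 in FH libraries, against 0.415 to 0.448 in vector libraries, with no overlap. Hif1a over Epas1 did not overlap in ob/ob mice, at 0.243 to 0.275 with FH and 0.285 to 0.381 with vector, and overlapped in fasted mice, at 0.260 to 0.315 with FH and 0.225 to 0.328 with vector.

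**Figure D3:**
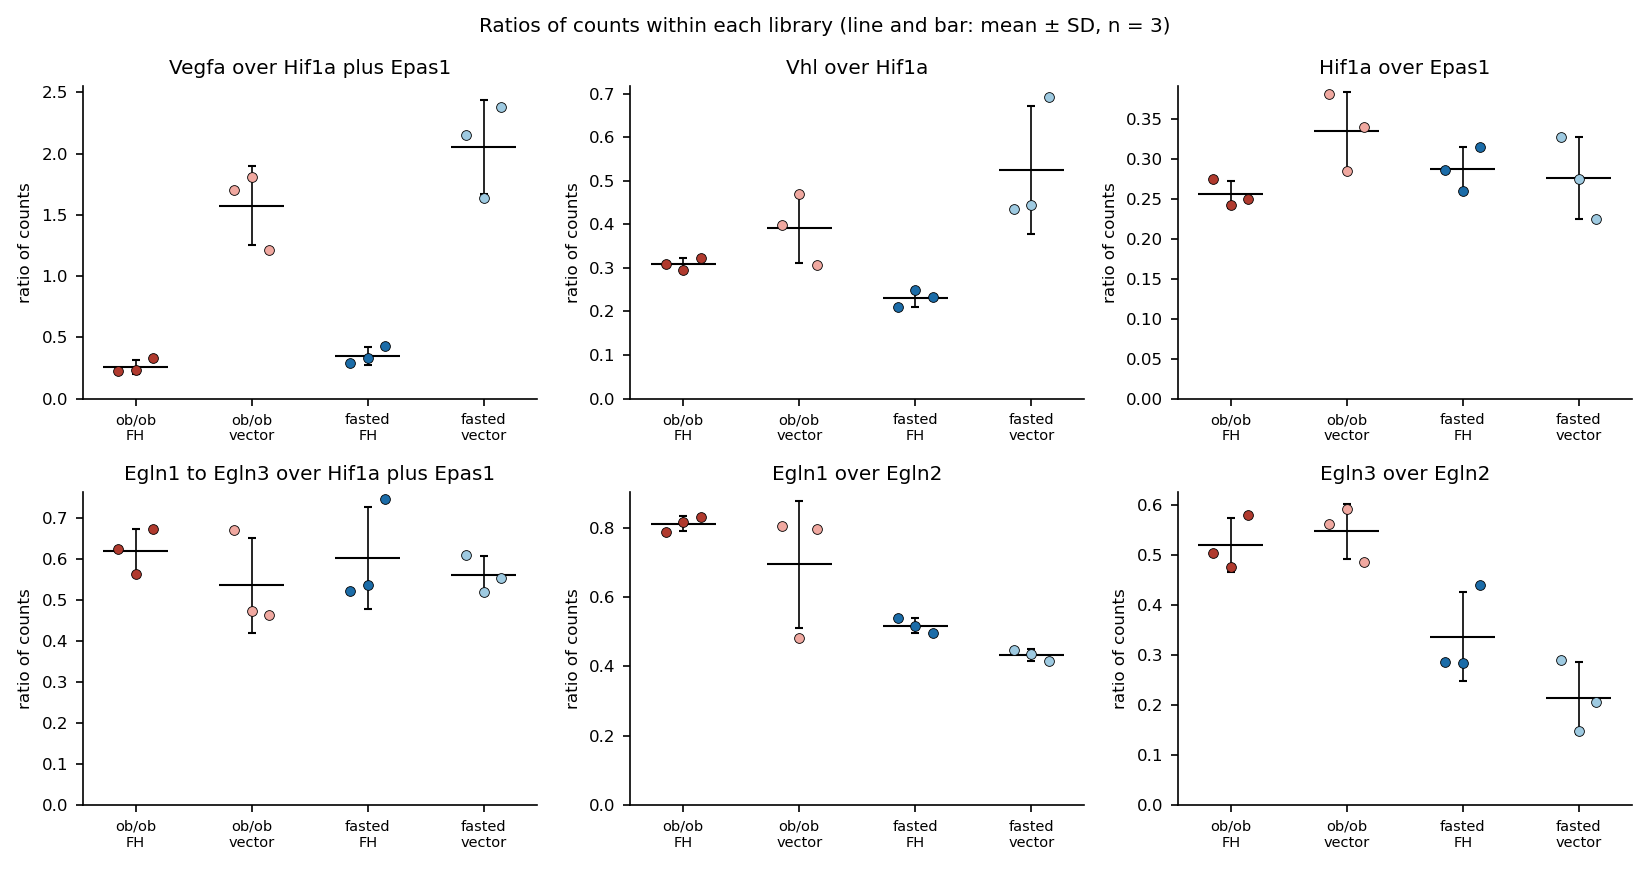
Ratios of raw counts within each library (linear axis from 0) in the 4 groups; points are libraries, lines and bars the mean and SD of 3. Vegfa over Hif1a plus Epas1 is 0.226 to 0.428 in the 6 FH libraries and 1.21 to 2.38 in the 6 vector libraries, while the summed EGLN counts over the same denominator overlap between FH and vector in each model.

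Levels were compared between genes per kilobase of exon (CPM per kb, exon lengths from GENCODE M21). Ldha led every group, at 837 ± 92.6 CPM per kb in ob/ob FH and 384 ± 131 in ob/ob vector mice, and at 858 ± 104 in fasted FH and 505 ± 141 in fasted vector mice (SD, n = 3). Vegfa stood below Epas1 and Egln2 with FH, at 15.1 ± 2.32 CPM per kb in ob/ob FH and 22.5 ± 1.65 in fasted FH mice. With vector Vegfa was next to Ldha, at 69.1 ± 10.2 CPM per kb in ob/ob vector and 76.3 ± 10.995 in fasted vector mice. Egln2 and Epas1 did not overlap in either ob/ob group and overlapped in both fasted groups.

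Egln1 and Hif1a did not overlap in ob/ob FH mice, where Egln1 was at 12.3 ± 0.196 and Hif1a at 7.69 ± 0.613 CPM per kb, and overlapped in the other 3 groups. Ankrd37 reached 1.95 ± 0.722 CPM per kb in ob/ob vector mice, where it overlapped Slc2a1. In the other groups Ankrd37 was last, with means of 0.271 to 0.459 CPM per kb.

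Egln2 made up most of the EGLN mRNA per length, at 51.9% ± 1.39 in ob/ob FH and 53.3% ± 2.49 in ob/ob vector mice, and at 62.7% ± 2.38 in fasted FH and 69.4% ± 3.06 in fasted vector mice (SD, n = 3). Egln1 took 25.8% ± 0.543 in ob/ob FH and 22.5% ± 5.19 in ob/ob vector mice, and 19.9% ± 1.51 in fasted FH and 18.4% ± 0.729 in fasted vector mice. Egln3 took 22.3% ± 1.70 in ob/ob FH and 24.2% ± 3.12 in ob/ob vector mice, and 17.4% ± 3.84 in fasted FH and 12.2% ± 3.54 in fasted vector mice. The Egln3 share overlapped between FH and vector in each model.

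The ob/ob and fasted groups differ in genotype, diet and fasting, which cannot be told apart, and their comparisons share libraries with those above. The ob/ob FH and fasted FH groups also differ in Xist and Y-linked counts, which cannot be told apart from genotype, diet and fasting. With vector, 2 of the 9 members other than Ankrd37 were called higher and 1 lower in ob/ob than in fasted mice, against 9.36% and 8.18% of all tested genes (17.5% in either direction). On the log2 scale Egln3 was higher by 1.08 (SE 0.23, adjusted p = 0.00547) and Hif1a by 0.46 (SE 0.14, adjusted p = 0.0352). Ankrd37, selected through the ob/ob vector group, stood at 2.09 (SE 0.64), and at 2.08 with no filter (adjusted p = 0.00243, with the limit on that fit given above). Slc2a1 was lower, at -0.77 (SE 0.18, adjusted p = 0.0105). Vegfa was at -0.14 (SE 0.15, adjusted p = 0.581), or 0.06 with library totals. With library totals Egln3 and Hif1a were called again, Egln1 was also called (0.61, adjusted p = 0.0247) and Slc2a1 was not (-0.57, adjusted p = 0.0524), against 17.9% of all genes higher and 4.21% lower (22.1% in either direction). The libraries of these groups did not overlap for 4 of the 9 (29.6% of all tested genes). Leaving out ob/ob vector replicate 1 (0.49, adjusted p = 0.0698) or 3 (0.36, 0.143), or fasted vector replicate 2 (0.53, 0.0526) or 3 (0.35, 0.140), ended the Hif1a call. Without ob/ob vector replicate 2, the library whose Dbp stood apart, Egln1 also passed, at 0.63 (adjusted p = 0.00132).

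With FH, 0 of the 9 were called higher and 3 lower in ob/ob than in fasted mice, against 18.6% and 21.6% of all tested genes (40.2% in either direction). These were Slc2a1 at -1.03 (SE 0.17, adjusted p = 5.25e-04), Egln2 at -0.44 (SE 0.10, adjusted p = 0.00322) and Vegfa at -0.57 (SE 0.16, adjusted p = 0.0105). With library totals Slc2a1 stayed lower (-0.77, adjusted p = 0.00582), Egln2 and Vegfa were not called, and Egln1 (0.47, adjusted p = 0.0465) and Vhl (0.39, adjusted p = 0.0485) were called higher, against 26.5% of all genes higher and 9.70% lower (36.2% in either direction). These groups did not overlap for 6 of the 9 (56.7% of all tested genes). Leaving out ob/ob FH replicate 1 ended the Vegfa call (-0.43, adjusted p = 0.0745).

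Other genes of the pathway were read from lists of known roles. The background for the FH calls below, on TMM scaling, was 25.8% of tested genes higher and 27.9% lower in ob/ob mice. It was 27.4% and 27.6% in fasted mice. With library totals it was 6.83% and 53.3% in ob/ob mice, and 7.16% and 55.7% in fasted mice. For the difference between the models 8.42% were called with TMM and 7.11% with library totals. Among 15 tested partners and regulators of HIF, 5 rose and 5 fell with FH in ob/ob mice (median log2 fold change -0.03), and 6 rose and 2 fell in fasted mice (median 0.12). With library totals the split was 2 higher and 9 lower in ob/ob mice, and 2 higher and 8 lower in fasted mice. Hif3a is among the 15 and passed the filter only through the fasted vector libraries, where it was highest. It was kept in these counts and medians. Other list genes with few counts may have entered likewise, which was not examined. Os9, a lectin of the endoplasmic reticulum also reported to bind HIF1 alpha, rose by 1.67 on the log2 scale in ob/ob mice and 1.55 in fasted mice (adjusted p = 3.73e-06 and 6.39e-06). Hsp90ab1, a chaperone of HIF1 alpha, rose by 1.15 and 1.00 (adjusted p = 4.04e-05 and 1.13e-04), and both genes also passed with library totals. Hif1an, the asparagine hydroxylase FIH, rose by 0.44 and 0.88 (adjusted p = 0.0168 and 1.73e-04) on TMM scaling, with the ob/ob sign turned to -0.18 by library totals. Eloc, the elongin C of the VHL complex, fell by 0.73 and 0.59 (adjusted p = 0.00216 and 0.00846). Its partner Elob rose by 0.66 in fasted mice on TMM scaling (adjusted p = 0.00396).

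Siah1a, a ligase that degrades EGLN proteins, fell by 0.92 in ob/ob mice (adjusted p = 2.33e-04), and the effect in ob/ob mice minus that in fasted mice was -0.79 (adjusted p = 0.0389, and 0.0749 with library totals). Hif3a, a further alpha subunit, had 0 counts in all 3 ob/ob FH libraries, which allows up to 0.128 to 0.139 CPM of library totals, against 3, 1 and 5 counts in ob/ob vector libraries. It had 4, 3 and 12 counts in fasted FH libraries, against 8, 31 and 31 counts in fasted vector libraries. The ob/ob counts are too few for a fold.

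A list of 11 genes was drawn up around the enzymes of 2-oxoglutarate, succinate and fumarate. It includes Fh1 itself, several subunits of succinate dehydrogenase and the glutaminase Gls2, which does not act on these metabolites directly. On TMM scaling 10 of the 11 rose and 1 fell with FH in each model (median 0.87 in ob/ob and 0.93 in fasted mice). Fh1, whose level followed FH delivery, is counted among the 10. With library totals 4 rose and 1 fell in ob/ob mice, and 5 rose and 1 fell in fasted mice. Sdha, the catalytic subunit of succinate dehydrogenase, rose by 0.97 on the log2 scale in ob/ob mice and 1.48 in fasted mice (adjusted p = 5.38e-05 and 3.49e-06). Ogdh, which consumes 2-oxoglutarate, rose by 1.37 and 1.76 (adjusted p = 5.22e-05 and 8.93e-06). The urea cycle enzyme Asl, which releases fumarate, rose by 1.51 and 0.91 (adjusted p = 8.05e-05 and 0.00285), and Idh1, which makes 2-oxoglutarate, by 0.87 and 1.09 (adjusted p = 2.73e-04 and 4.96e-05). Sdhc, another subunit of succinate dehydrogenase, rose by 0.84 in fasted mice on TMM scaling (adjusted p = 6.28e-05). Sdhd, a membrane anchor of succinate dehydrogenase, was the one that fell, by 0.46 and 0.40 (adjusted p = 0.0182 and 0.0343). Fh1 was the 1 gene of the 11 whose effect differed between the models, at 1.13 (SE 0.28, adjusted p = 0.0267).

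Of 21 tested glycolysis and glucose-entry genes known as HIF targets, 13 rose and 0 fell with FH in ob/ob mice and 11 rose and 2 fell in fasted mice (medians 0.82 and 0.78). With library totals 6 rose and 0 fell in ob/ob mice, and 7 rose and 7 fell in fasted mice. Eno1, an enolase, rose by 1.74 in ob/ob mice and 1.90 in fasted mice (adjusted p = 1.16e-04 and 6.03e-05). Gpi1, the isomerase of glucose 6-phosphate, rose by 1.73 and 1.41 (adjusted p = 1.32e-05 and 5.96e-05), and Tpi1, triose-phosphate isomerase, by 1.20 and 1.28 (adjusted p = 8.61e-05 and 5.33e-05). These 3 passed with library totals in both models, as did Pfkl, a phosphofructokinase, which rose by 1.05 and 1.08 (adjusted p = 5.18e-05 and 5.05e-05). Gapdh, a glyceraldehyde phosphate dehydrogenase, rose by 1.60 and 1.63 (adjusted p = 9.35e-05 and 7.90e-05) and has many pseudogenes that may share its reads. The aldolase gene Aldoc rose by 1.86 in fasted mice (adjusted p = 3.85e-05).

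Pkm and Hk1, the genes of a pyruvate kinase and a hexokinase, rose in ob/ob mice by 1.28 and 1.17, and their effects there minus those in fasted mice were 1.67 (adjusted p = 0.00876) and 1.56 (adjusted p = 0.0227). Eno2 had 0 counts in the 3 fasted FH libraries, which allows up to 0.116 to 0.157 CPM of library totals, against 0, 4 and 0 counts in fasted vector libraries. Of 8 hepatocyte markers, 6 rose with FH in ob/ob mice and 8 in fasted mice, or 3 and 4 with library totals, and their part in these counts was not tested.

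The 37 tested genes of the wider hypoxia response did not move one way. In ob/ob mice 6 rose and 6 fell (median 0.16), and in fasted mice 11 rose and 6 fell (median -0.04). With library totals 2 rose and 14 fell in ob/ob mice, and 1 rose and 21 fell in fasted mice. Wsb1, a HIF-induced ligase subunit that targets VHL, fell by 2.69 on the log2 scale in ob/ob mice and 2.57 in fasted mice (adjusted p = 2.22e-06 and 3.43e-06). Kdm3a, a histone demethylase induced by hypoxia, fell by 1.31 and 0.89 (adjusted p = 1.28e-05 and 2.30e-04). Plod1, a collagen lysyl hydroxylase, rose by 1.55 and 1.14 (adjusted p = 3.50e-05 and 3.40e-04) on TMM scaling. Ak4, a mitochondrial adenylate kinase, stood at 0.19 in ob/ob mice and rose by 2.17 in fasted mice (adjusted p = 2.22e-06), a difference of -1.98 (SE 0.25, adjusted p = 0.00118).

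Hmox1, heme oxygenase 1, rose by 1.24 in ob/ob mice (adjusted p = 1.80e-04), with a difference between the models of 1.52 (adjusted p = 0.00733). Anln, a cytokinesis protein, stood at 0.66 in ob/ob mice and -1.53 in fasted mice, a difference of 2.19 (adjusted p = 0.0167). Insig2, which holds back sterol synthesis, stood at 0.23 in ob/ob mice and -1.28 in fasted mice, a difference of 1.5045 (adjusted p = 0.0223). In fasted mice Ccng2 fell by 1.54 (adjusted p = 2.60e-05) and Tgfa rose by 0.90 (adjusted p = 1.69e-04). Epo, the classic HIF2 target, had 0 counts in all 12 libraries, which allows up to 0.116 to 0.245 CPM of library totals.

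**Figure D4:**
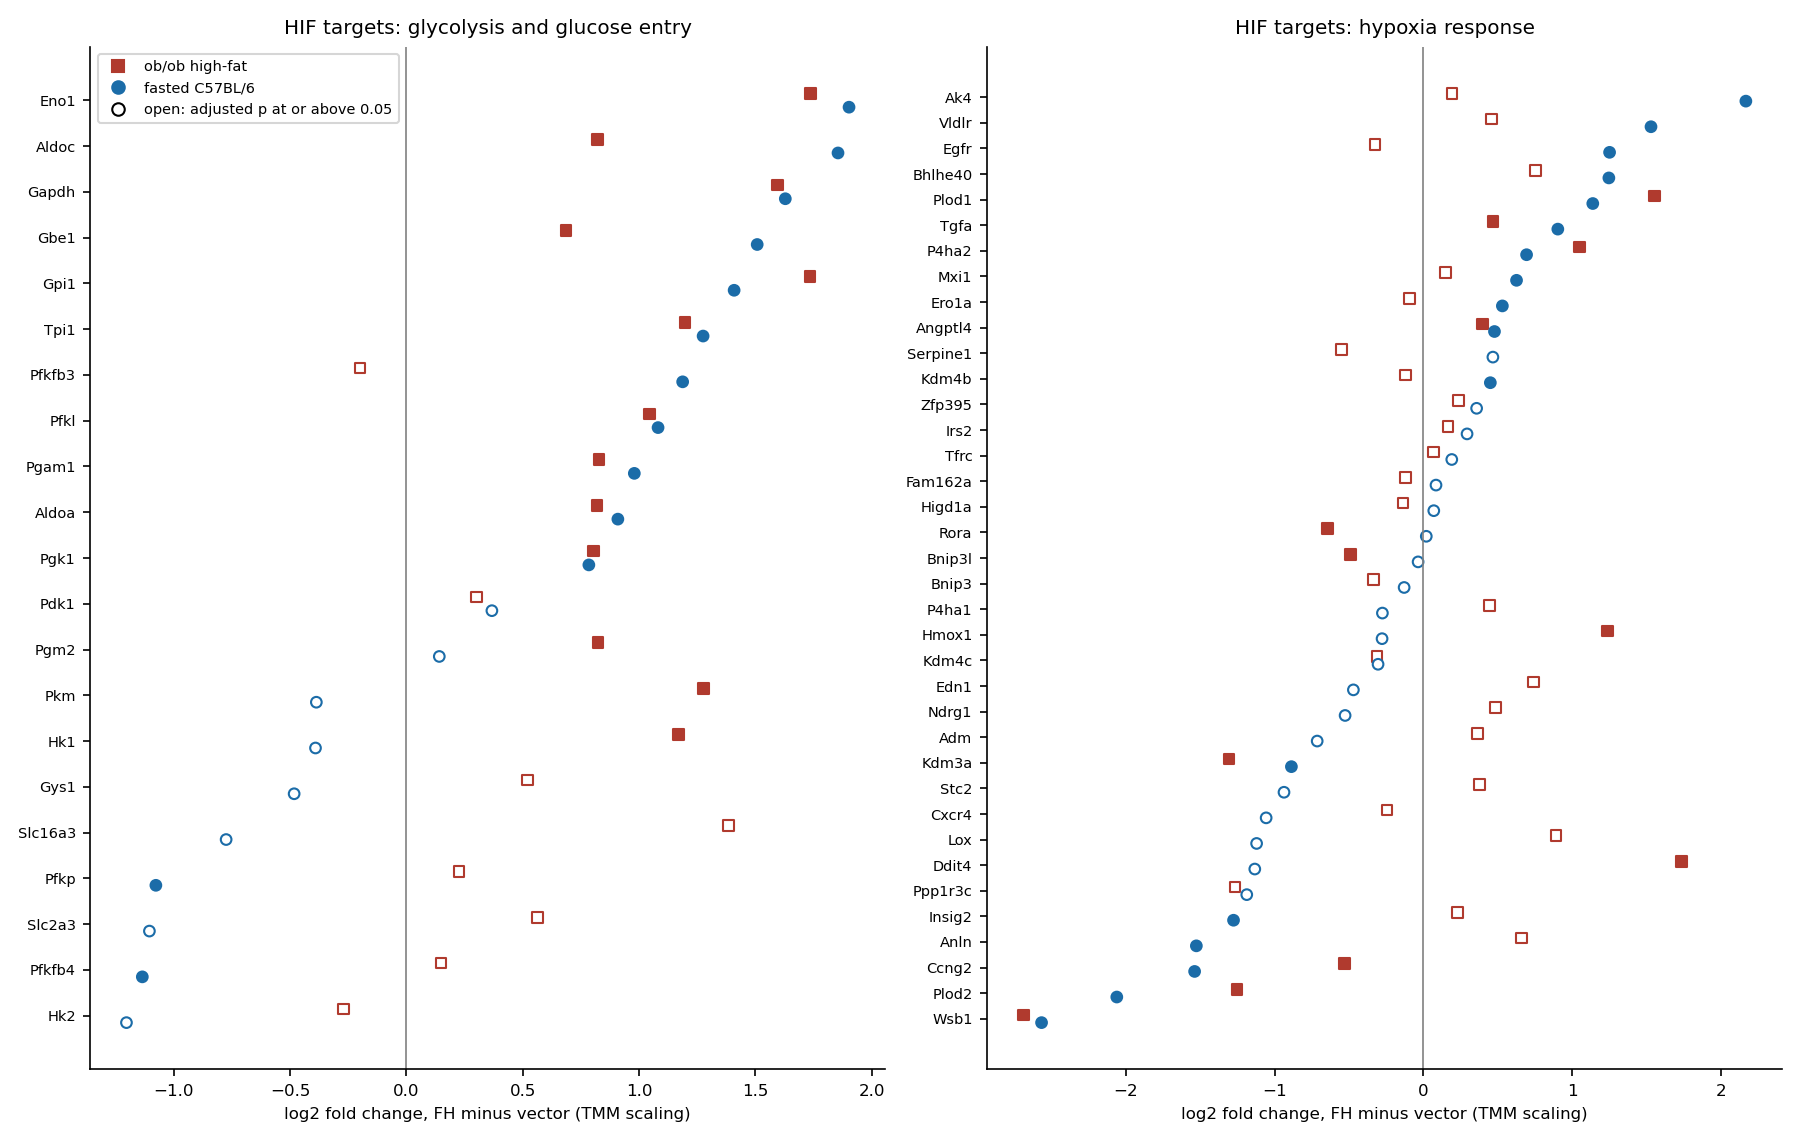
Log2 fold change of FH minus vector (TMM scaling) for tested HIF targets of glycolysis and glucose entry (left) and of the wider hypoxia response (right), in ob/ob mice (squares) and fasted mice (circles); filled symbols have an adjusted p under 0.05. Called glycolysis genes lie mostly to the right of 0 (13 of 13 in ob/ob and 11 of 13 in fasted mice), but with library totals the fasted calls split 7 higher and 7 lower, and called hypoxia response genes lie on both sides.

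Of 8 tested VEGF ligands and receptors other than Vegfa, 4 had an FH effect called different between the models, the receptors Kdr, Flt4 and Flt1 and the co-receptor Nrp2. In ob/ob mice 5 of the 8 rose and 1 fell with FH (median 0.50), and in fasted mice 0 rose and 4 fell (median -0.58). With library totals 0 rose in either model, 2 fell in ob/ob mice and 5 fell in fasted mice. Kdr, the main VEGF receptor of endothelial cells, had 49.4 ± 4.94 CPM in ob/ob FH and 37.2 ± 4.69 CPM in ob/ob vector mice, and 24.8 ± 1.12 CPM in fasted FH and 47.3 ± 3.45 CPM in fasted vector mice (SD, n = 3). Its FH effect was 0.41 in ob/ob mice (adjusted p = 0.0124), or -0.21 with library totals, and -0.93 in fasted mice (adjusted p = 4.54e-05). The effect in ob/ob mice minus that in fasted mice was 1.34 (SE 0.18, adjusted p = 0.00147).

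Flt4, the receptor of VEGF-C and VEGF-D, rose by 0.89 in ob/ob mice (adjusted p = 0.00194) and fell by 1.22 in fasted mice (adjusted p = 2.35e-04), a difference of 2.11 (SE 0.28, adjusted p = 0.00151). Flt1, another receptor of VEGF-A, was at 0.59 in ob/ob mice (adjusted p = 0.00705), or -0.03 with library totals, and at -0.62 in fasted mice (adjusted p = 0.00505), a difference of 1.21 (SE 0.23, adjusted p = 0.00738). The differences of Kdr, Flt4, Flt1 and Nrp2 were also called with library totals. Vegfd, a lymphatic growth factor, fell in both models, by 1.01 and 2.18 (adjusted p = 0.0204 and 2.91e-04).

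Of 12 endothelial markers, Kdr among them, 7 rose and 1 fell with FH in ob/ob mice on TMM scaling, and 3 rose and 4 fell with library totals. All 12 fell in fasted mice and all 12 differed between the models, under either scaling. Of 8 macrophage markers 5 rose in ob/ob mice and 6 fell in fasted mice, and with library totals 2 rose and 1 fell in ob/ob mice and 7 fell in fasted mice. Of 7 stellate cell markers 4 rose in ob/ob mice and 2 fell in fasted mice, and with library totals 1 rose and 1 fell in ob/ob mice and 6 fell in fasted mice. Of 6 lymphocyte markers 2 rose in ob/ob mice and 0 were called in fasted mice, and with library totals 1 and 4 fell. Of 4 cholangiocyte markers 0 were called in either model, and with library totals 1 fell in fasted mice. Of 5 erythroid markers 1 rose and 1 fell in ob/ob mice and 2 rose and 3 fell in fasted mice, and with library totals 1 rose and 3 fell in ob/ob mice and 3 fell in fasted mice. No marker was at 0 throughout a group. The part of these markers in the receptor results was not tested.

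**Figure D5:**
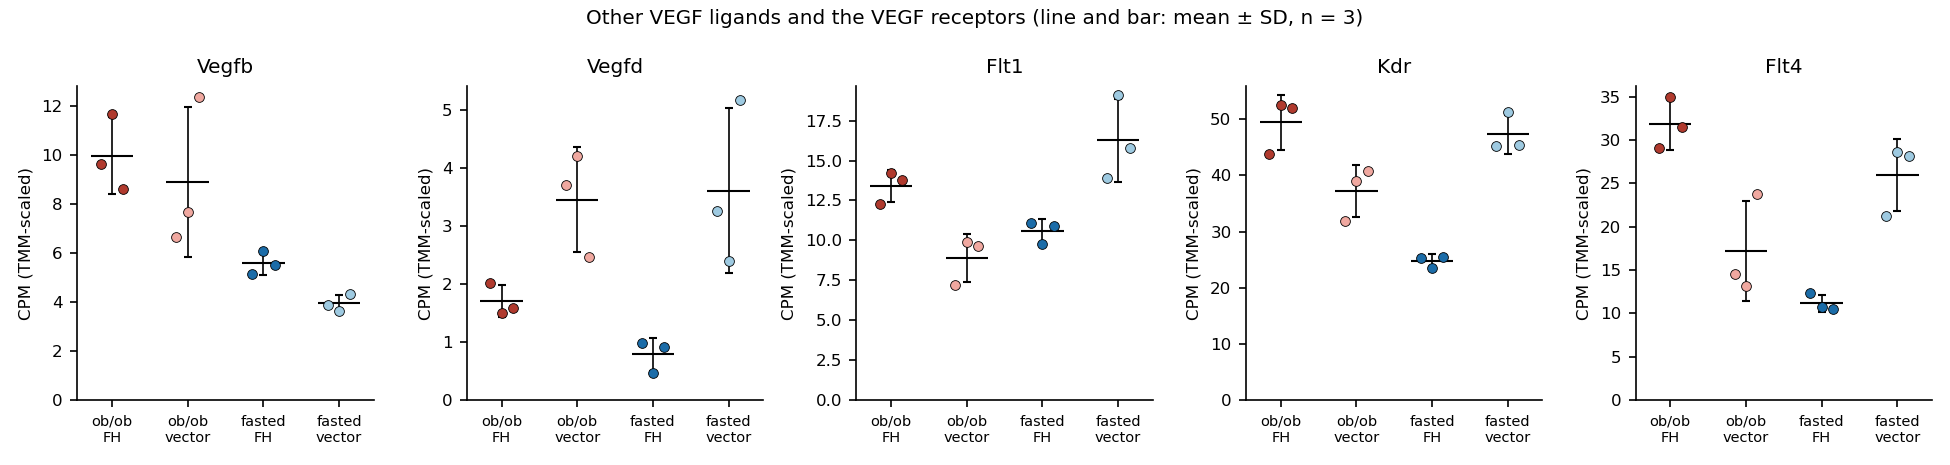
CPM (TMM-scaled, linear axis from 0) of the ligands Vegfb and Vegfd and the receptors Flt1, Kdr and Flt4 in the 4 groups; points are libraries, lines and bars the mean and SD of 3. The 3 receptors are higher with FH in ob/ob mice on TMM scaling (with library totals the effects of Kdr and Flt1 there are -0.21 and -0.03) and lower with FH in fasted mice, while Vegfd is lower with FH in both.

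The transcripts whose profiles over the 12 libraries lay nearest to a member were found among 9510 tested genes averaging 5 CPM or more, by the root-mean-square distance of centred log2 CPM. Vegfa lay nearest to Ogt (0.109), Srsf11 (0.132) and Fam76b (0.145). Ogt averaged 36.6 CPM in ob/ob FH and 172 CPM in ob/ob vector mice, and 48.8 CPM in fasted FH and 182 CPM in fasted vector mice. Hif1a lay nearest to Vps41 (0.120), Scp2 (0.121) and Rragc (0.122), and Epas1 to Klhl18 (0.0890), Dhx9 (0.0987) and Clasp1 (0.0989). Egln1 lay nearest to Rmdn3 (0.0829), Flot2 (0.109) and Pigq (0.110), and Egln3 to Chmp6 (0.211), GM56936 (0.263) and Alad (0.272). Ankrd37 had no close neighbour, the nearest being Sec31b (0.770), Fads3 (0.828) and Gm42047 (0.839). Among the members themselves Hif1a and Epas1 were the closest pair (0.210), and the targets Vegfa and Ldha were 1.55 apart. The distances share the libraries and their scaling, and say nothing of shared control.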

How the data were processed

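Gene counts for the 12 libraries were used unchanged, as the authors deposited them. The submitters' processing notes name STAR 2.7.11a and GRCm39. Per the labels' protocols, RNA was extracted with TRIzol and libraries made with a stranded Illumina mRNA kit. Which counter, annotation and strand option produced the table is not given in the sources used. Of 56441 gene symbols, 49047 matched a reference list of gene symbols. GENCODE M21 (GRCm38), matched by symbol, gave the exon lengths and overlaps of the members. Promoter sequences came from RefSeq (GRCm38.p6).

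Counts were modelled with edgeR 4.0.16 in R 4.3.3 (quasi-likelihood F test, TMM scaling, 1 model of 4 groups, 8 residual degrees of freedom) over the 15228 genes that passed filterByExpr (10 counts, 15 in total). Adjusted p is Benjamini-Hochberg over these genes, called under 0.05. Each SE belongs to its log2 fold change. Library totals, RLE scaling, no filter, DESeq2 1.42.0, a block on the replicate number, the groups of a comparison alone and leaving out each library were the alternatives. Only the fasted comparison of the edgeR fit with TMM scaling was run on simulated data. Few genes were changed there, so that run cannot speak for the scaling, the difference of effects or the other steps.

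Members and gene lists were chosen with earlier results of these data known. All members are named. Of each list, at most 4 called genes with the smallest adjusted p per comparison and genes at 0 counts are named, and for 6 members the 3 nearest profiles. Eno1 and Sdhd, outside this rule, were named after their values were seen. Replicates of a group differed by a chi-square of 22.0 to 119 per degree of freedom, so none was a duplicate. The highest values, 78.8 and 119, were those of ob/ob vector replicate 2 against the other ob/ob vector libraries. Those differed from each other by 22.4, and no pair in another group was above 47.4.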

Additional observations from a re-analysis of the deposited data

Results flagged for a closer look

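Hif1a is listed here because its FH effect differed between the models by a test of the difference itself. It was the 1 member called, where 8.42% of all tested genes were called. The effect in ob/ob mice minus that in fasted mice was -0.76 on the log2 scale (edgeR, adjusted p = 0.0316). The call was lost in 8 of the 12 fits that left out 1 library. Dbp also differed between groups, and its part in this difference was not tested. The Xist and Y-linked counts differed too, and in ob/ob mice they cannot be told apart from FH.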

How the results depend on the processing

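With library totals 4 members, Ankrd37 among them, were called for FH in ob/ob mice and 3 in fasted mice, and 7 values turned sign. These were the FH effects in ob/ob mice of Hif1a (-0.52), Epas1 (-0.14), Egln2 (-0.056) and Egln3 (-0.13), the ob/ob minus fasted values with FH of Epas1 (0.12) and Ldha (0.23), and that of Vegfa with vector (0.057). The part of depth and composition in this was not tested. The same Ldha value, near 0, also turned with no filter (0.0040), with the FH groups alone (0.036), without ob/ob FH replicate 1 (0.10) and without fasted FH replicate 1 (0.062), in a leave-one-out range of -0.11 to 0.10. Vhl turned in the difference of effects without fasted vector replicate 3 (-0.025, range to 0.18), and with vector without fasted vector replicate 1 (-0.0032) or ob/ob vector replicate 2 (-0.0068, range to 0.16). With no filter 2 members, Hif1a and Egln3, differed between the models, against 1849 of 28566 genes. The adjusted p-values of that fit ran unlike those of the main fit, as given for Ankrd37. With the vector groups alone 1244 genes and 2 members were called between ob/ob and fasted mice. Leaving out 1 library gave 582 to 1651 genes and 0 to 2 members called for the difference of effects, and 1669 to 3412 genes and 2 to 5 members between the vector groups. These counts of members take in Ankrd37 wherever it was tested. The cause of these changes was not tested, but each such fit has fewer libraries. Under DESeq2 and RLE scaling 49 of 50 results kept direction and side of the threshold.

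The replicate numbers did not pair the libraries: same-numbered libraries' deviations correlated at -0.14 to 0.14, and others' at -0.20 to 0.19. A block on the number called 8073 genes for FH in ob/ob mice, 8207 in fasted mice and 1137 for the difference, and it lost 1 member's call, Ankrd37 between the vector groups (2.09, adjusted p = 0.0632). Genes with few counts, such as Ankrd37 and Hif3a, are limited by depth.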
